A study of Mus musculus with 6 samples.

Results

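Expression of 9 genes of the retinoic acid pathway was followed in single cells of the fetal mouse small intestine: Aldh1a1, Aldh1a2 and Aldh1a3, which encode enzymes that make retinoic acid; Cyp26b1, which encodes an enzyme that breaks it down; Crabp1 and Crabp2, which encode binding proteins of the cytoplasm; and Rara, Rarb and Rarg, which encode its nuclear receptors. They were taken by symbol, and all 9 were among the 24568 genes of the deposited matrix. The cells came from a Pdgfra-H2BGFP line on a C57/BL6 background, in which a nuclear green fluorescent protein is driven from the locus of Pdgfra, a growth factor receptor of mesenchymal cells. All groups carried this reporter. A first experiment held the embryonic ages E15.5 and E16.5, with 2 samples of all live cells (negative for the dead-cell stain DAPI and the red-cell antigen Ter119) and 1 sample enriched for rare cells. A second experiment held E13.5, E14.5 and E18.5 in the same layout. Enrichment took cells positive for CD31 (endothelium), CD45 (blood lineage) or Epcam (epithelium), or with a high GFP signal. Embryos of an age were pooled, at 4 replicates for E13.5, 3 for E14.5 and 2 for each of the other ages.

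Retinoic acid is made from vitamin A in 2 oxidation steps. Retinol is first turned to retinaldehyde, mainly by Rdh10 in the embryo, and the ALDH1A enzymes then oxidise retinaldehyde to the acid. Enzymes of the CYP26 family clear the acid, so that the sites of synthesis and of breakdown set where it can act. Retinoic acid receptors bind DNA as partners of RXR receptors at pairs of a 6-base element, and Rarb is a textbook target whose own promoter holds such a pair. In the gut, retinoic acid is known for its part in early patterning, in the mesenchyme and in the homing of immune cells.

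The element that gives Rarb its response is shown because Rarb is the receptor whose level differed most between cells in the results that follow. Promoters in RefSeq on GRCm38.p6 (250 bases before to 50 after the start site) were matched for 7 of the 9 genes; Aldh1a3 and Crabp2 had no entry. They were searched on both strands for 2 copies of an element in the same direction, with 5 bases between them; the element was AGGTCA, or the variant AGTTCA, or the variant GGGTCA, or the variant GGTTCA. Such a pair was found in 32 of 32851 promoters (0.0974%). Rarb was the only one of the 7 genes that held it, and of the 20 promoters matched from a list of 26 other retinoid genes Cyp26a1, a relative of Cyp26b1, held it as well. Capitals mark the paired elements.
Rarb: ggaagGGTTCAccgaaAGTTCActcgc
Cyp26a1: aaattAGTTCAcccaaAGTTCAtcttt
The Rarb stretch is chr14:16575508-16575534 on the minus strand, the pair lies at -53 to -37 from the start site, and in GENCODE M21 it falls in an exon and UTR of the transcripts Rarb-201 and Rarb-207. The Cyp26a1 stretch is chr19:37697771-37697797 and is shown on the minus strand, opposite to the gene. Its pair lies at -32 to -16, and no GENCODE feature overlaps it. Pairs with 1 base between the copies were in 0.222% of promoters and pairs with 2 bases in 0.268%, and none was in the promoter of any of the 7 genes. A match of letters is a description and was not tested for binding. Cyp26a1 was counted 1 time in the whole matrix and Cyp26c1 0 times, so Cyp26b1 was the member of its family that could be followed here.

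The matrix held 13127 cells and 100735249 unique molecular identifiers (UMIs, which count captured transcripts). Barcodes end in 6 suffixes, and no label ties a suffix to a sample. The matrix is therefore 1 sample here, and the suffixes are technical sets. Sets A1, A2 and A3 share the ending _1, and sets B1, B2 and B3 share the ending _2. With no replicates, no test was possible; intervals in the text are 95% intervals that cover counting error only, and each level is in CPM, counts of a gene per 1000000 UMIs of the set or cluster. After filtering, 12688 cells remained, between 1185 and 2518 per set. Depth differed, with a median of 3553 to 13590 UMIs per cell in a set, and shares of cells were therefore also taken after thinning each cell to 2000 UMIs. There were 22 cell barcodes shared by more than 1 set, in 44 cells. Nearly all cells were mesenchymal. The summed level of 10 markers of PDGFRA-high mesenchyme was 449 CPM in A1, 390 in A2 and 2734 in A3, and 477 in B1, 503 in B2 and 1807 in B3, so set 3 of each ending held more of these cells. Markers of epithelium, endothelium and blood lineage also rose in set 3, while those of enteric neurons, glia, smooth muscle and pericytes fell. Enteric neuron markers summed to 34.3, 36.8 and 4.80 CPM in A1 to A3 and to 96.1, 96.3 and 1.45 CPM in B1 to B3. Smooth muscle markers summed to 1548, 1602 and 553 CPM in A1 to A3 and to 1140, 1125 and 228 CPM in B1 to B3. The sum of 7 epithelial markers was 46.7 CPM in A1 and 44.4 in A2 against 326 in A3, and 36.9 CPM in B1 and 38.4 in B2 against 102 in B3. The 6 endothelial markers summed to 6.70 to 17.7 CPM in sets 1 and 2 against 61.0 in A3 and 49.2 in B3, and the 6 blood-lineage markers to 11.9 to 35.9 CPM against 91.1 in A3 and 76.9 in B3. No marker of these lists was at 0 in all sets. Their part in the results was not tested.

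Among the enzymes of synthesis, Aldh1a2 was counted most often in 6 of 6 sets. Its level was 233 CPM in A1, 239 in A2 and 287 in A3, and 104, 111 and 359 CPM in B1 to B3. The 3 sets of ending A lay close together, whereas B3 stood well above B1 and B2. On the log2 scale, set 3 minus sets 1 and 2 summed was 0.28 (0.22 to 0.34) in ending A and 1.74 (1.66 to 1.82) in ending B.

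Aldh1a3 showed the reverse layout. It stood at 40.2 CPM in A1, 38.6 in A2 and 223 in A3, and at 49.6 in B1, 54.4 in B2 and 74.1 in B3. A3 was far above the other 5 sets, with a log2 difference of 2.50 (2.42 to 2.59) in ending A and 0.51 (0.36 to 0.65) in ending B.

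Aldh1a1 followed Aldh1a3 in ending A. Its level was 21.3 CPM in A1, 21.9 in A2 and 67.4 in A3, and 9.05, 11.3 and 13.1 CPM in B1 to B3. The log2 difference was 1.64 (1.50 to 1.78) in ending A and 0.35 (0.01 to 0.69) in ending B, where the intervals of the 3 sets overlapped. Aldh1a7, a close paralog that can share reads with Aldh1a1, had 189 UMIs in all. The number of shared reads is not known here, so this count sets no limit on the error of Aldh1a1.

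The mix of the 3 enzymes therefore shifted in opposite directions. Aldh1a2 made up 79.1% of their UMIs in A1 and 79.8% in A2, but 49.7% (48.3 to 51.0) in A3, where Aldh1a3 took 38.7% (37.4 to 40.0). In ending B it made up 63.9% in B1 and 62.7% in B2, and 80.5% (79.2 to 81.7) in B3. The capture of these transcripts can differ between genes, so the shares compare sets better than genes.

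In A3 the summed level of 5 enterocyte markers was also high, at 2325 CPM against 491 in A1 and 472 in A2, and it was 32.0 to 55.6 CPM in ending B. In the 3 PDGFRA-high-like clusters of A3 (described with the clusters) the enterocyte sum was 2725, 2548 and 1913 CPM. Aldh1a1 was 131, 11.5 and 8.27 CPM there, and Aldh1a3 was 394, 51.1 and 65.6 CPM. The first of these clusters, Ac0, had the highest value of the 3 for the enterocyte sum, Aldh1a1 and Aldh1a3. In the other 2, Ac12 and Ac13, Aldh1a1 rests on 14 and 15 UMIs, too few to order them. The A3 cells of the unnamed cluster Ac11 had an enterocyte sum of 1666 CPM, with Aldh1a1 at 10.5 CPM and Aldh1a3 at 58.8 CPM. The part of enterocyte transcripts in these levels was not tested.

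Cyp26b1, the gene of retinoic acid breakdown, was scarce in sets 1 and 2 of both endings and was counted mainly in set 3. It had 1.35 CPM in A1, 1.15 in A2 and 23.4 in A3, and 2.46 in B1, 3.56 in B2 and 32.0 in B3. Both sets 3 lay above the other 4 sets with no overlap of intervals. The log2 difference was 4.23 (3.84 to 4.62) in ending A, an 18.7-fold ratio, and 3.40 (3.00 to 3.81) in ending B. After thinning, 0.243% of cells in A1 and 0.479% in A2 had a UMI, against 4.82% (3.67 to 6.20) in A3; the shares were 0.723% in B1, 0.837% in B2 and 5.89% (4.94 to 6.96) in B3. Without thinning, the shares were 1.58%, 1.39% and 15.3% in A1 to A3 and 1.03%, 1.43% and 10.2% in B1 to B3. A glia-like cluster of 35 cells in ending B (median 8109 UMIs), a cell type for which Cyp26b1 is not a known marker, had no cell with a UMI of Cyp26b1, which allows a share of up to 10.0%; none of its cells came from B3, so it gives no background level for that set.

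Of the binding proteins, Crabp1 ran opposite to Cyp26b1. It had 13.54 CPM in A1, 15.1 in A2 and 1.39 in A3, and 5.21 in B1, 5.34 in B2 and 0.363 in B3, where only 3 UMIs were counted. The log2 difference was -3.37 (-4.28 to -2.59) in ending A and -3.86 (-6.16 to -2.28) in ending B. Crabp2 was low in every set, from 1.57 to 3.02 CPM, and its differences of -0.55 (-1.31 to 0.14) and -0.48 (-1.49 to 0.43) were within counting error.

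The 3 receptors differed from each other. Rara was found throughout, at 36.7, 40.1 and 52.1 CPM in A1 to A3 and at 47.9, 46.0 and 74.6 CPM in B1 to B3. Its set 3 values were the highest of each ending, with log2 differences of 0.44 (0.30 to 0.58) and 0.67 (0.52 to 0.81). Rarg was lower, at 9.10, 9.93 and 17.8 CPM in A1 to A3 and 5.21, 4.99 and 8.46 CPM in B1 to B3, and its differences were 0.91 (0.65 to 1.16) and 0.73 (0.28 to 1.18).

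Rarb went the other way. It had 17.3 CPM in A1, 19.1 in A2 and 4.05 in A3, and 6.99 in B1, 6.23 in B2 and 0.605 in B3. In both endings set 3 was below sets 1 and 2 with no overlap of intervals, by log2 -2.17 (-2.67 to -1.70) and -3.45 (-5.09 to -2.19). Rarb overlaps Top2b and Gm48162 on the other strand, and whether counting used strand is not given in the sources used here.

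**Figure D1:**
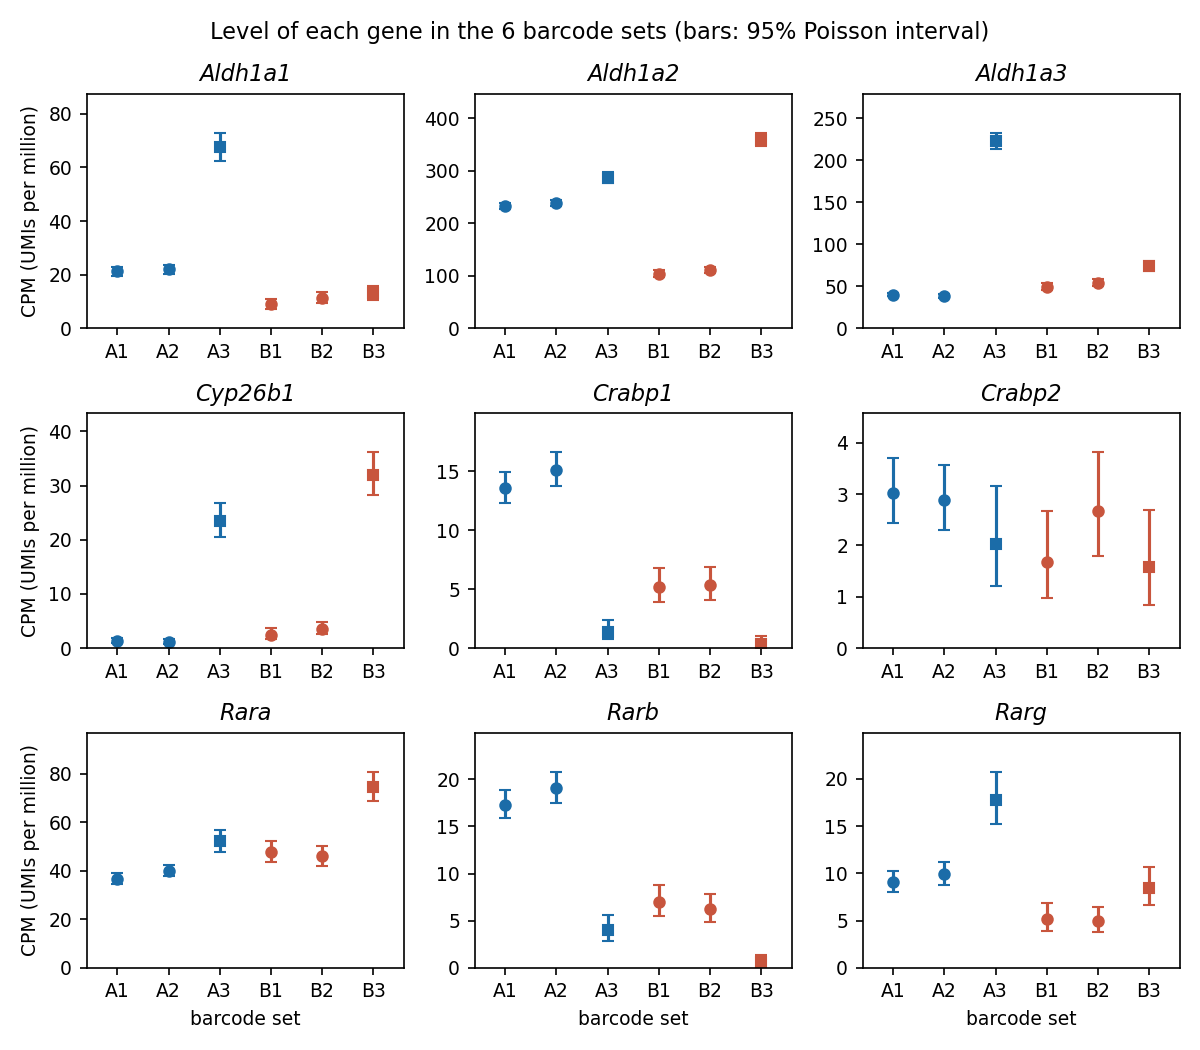
Level of each gene in CPM (y axis, from 0, a separate scale for each gene) in the 6 barcode sets (x axis). Points are set sums with 95% Poisson intervals, squares mark set 3, and colours mark the endings; Cyp26b1 is highest in A3 and B3 (23.4 and 32.0 CPM), where Crabp1 and Rarb are lowest.

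At 2-fold or more, with at least 5 CPM on 1 side, 3 of the 8 genes that passed this minimum in ending A were higher in set 3 (Aldh1a1, Aldh1a3, Cyp26b1), where the background over 11178 genes was 12.4%. In the same ending 2 of 8 were lower (Crabp1, Rarb), with a background of 6.58%. In ending B 2 of 8 were higher (Aldh1a2, Cyp26b1; background 9.79% of 10341 genes) and 2 of 8 lower (Crabp1, Rarb; background 6.34%). Crabp2 was the gene under the minimum in both endings. Cyp26b1, Crabp1 and Rarb were past 2-fold in the same direction in both endings, and Aldh1a1, Aldh1a2 and Aldh1a3 each in 1 ending. The share of all genes past 2-fold in the same direction in both endings is not given here, so this agreement has no background beside it. The median log2 difference of the 8 genes was 0.67 in ending A and 0.59 in ending B, beside 0.00 and 0.15 over all genes tested.

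**Figure D2:**
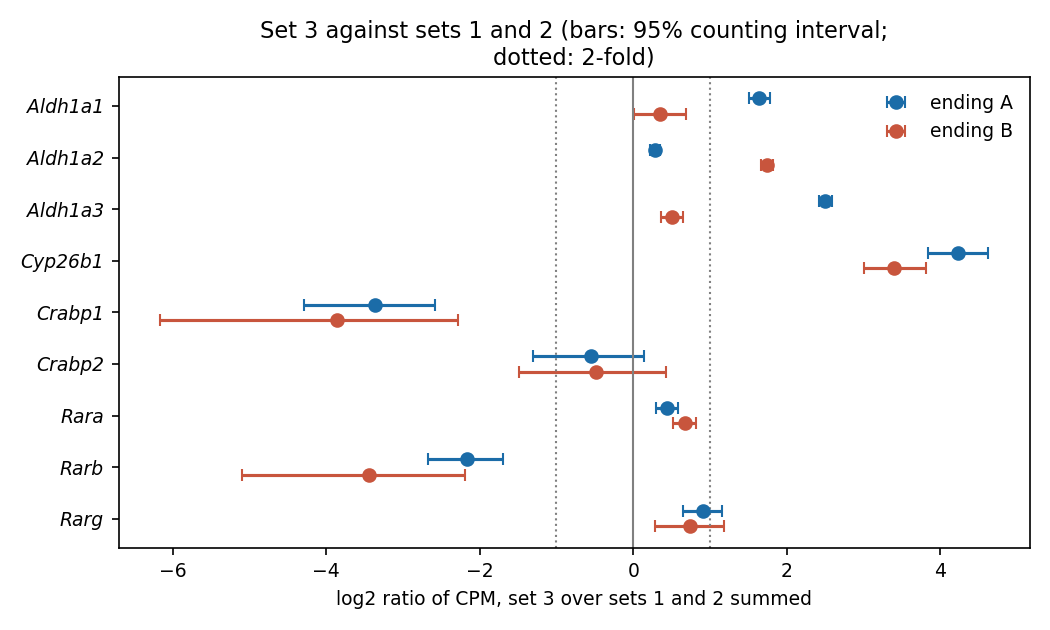
Log2 ratio of CPM in set 3 over sets 1 and 2 summed (x axis) for each gene (y axis), by ending. Points carry 95% counting intervals and dotted lines mark 2-fold; Cyp26b1 lies at 4.23 and 3.40, while Crabp1 and Rarb lie left of -1 in both endings.

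The list of 26 other retinoid genes held calls in both directions. In ending A 3 of the 20 that passed the minimum were higher in set 3 by 2-fold or more (background 12.4%) and 4 were lower (background 6.58%). In ending B 1 of 19 was higher (background 9.79%) and 4 were lower (background 6.34%). Its median log2 difference was -0.29 in ending A and 0.01 in ending B. Lrat, which esterifies retinol for storage, had 16.6 CPM in A1, 15.9 in A2 and 6.50 in A3, and 24.2 in B1, 19.9 in B2 and 2.54 in B3, and was past 2-fold in both endings. Rdh10 had 149, 145 and 68.6 CPM in A1 to A3 and 103, 104 and 59.5 CPM in B1 to B3, with log2 differences of -1.10 (-1.22 to -0.98) and -0.80 (-0.94 to -0.66), the second of them under 2-fold.

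Dhrs3, which reduces retinaldehyde back to retinol, differed between endings, at -0.06 (-0.27 to 0.14) in A and -1.25 (-1.57 to -0.94) in B. Of the orphan receptors of the list, Nr2f1 was lower in set 3 of both endings, at 31.9, 35.9 and 4.90 CPM in A1 to A3 and 29.1, 28.0 and 6.41 CPM in B1 to B3. Nr2f2 was at -1.15 (-1.29 to -1.01) and -0.40 (-0.57 to -0.23). Nrip1, a corepressor of nuclear receptors, was at 1.06 (0.98 to 1.15) and 0.63 (0.51 to 0.74), and Zfp703 at 0.31 (0.13 to 0.49) and 1.11 (0.90 to 1.31). Tgm2, a known retinoic acid target, was at -0.46 (-0.65 to -0.28) and -1.52 (-1.86 to -1.19). The other genes past 2-fold, Rbp4 and Adh1, were higher in A3 and stayed under 20 CPM. Receptor partners and the corepressor Ncor1 stayed within 2-fold: Rxra was at 0.80 (0.61 to 0.99) and 0.53 (0.25 to 0.80), Rxrb at -0.21 (-0.40 to -0.03) and 0.17 (-0.07 to 0.41), and Ncor1 at 0.25 (0.19 to 0.31) and 0.30 (0.23 to 0.37). Adh5, Dhrs4, Fabp5 and Hic1 were each within 2-fold in both endings.

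To see in which cells the genes lay, cells were clustered within each ending with all of these genes left out of the clustering. A cluster was called PDGFRA-high-like where at least 3 of its markers were 2-fold or more above the rest of the ending, Pdgfra itself at least 1.5-fold. This held for 6 clusters, with 4043 cells: Ac0, Ac12 and Ac13 in ending A and Bc1, Bc2 and Bc3 in ending B. Other mesenchyme held 8314 cells, the glia-like cluster 35, and cluster Ac11 with 243 cells, led by Apela and cycling genes, stayed unnamed because its Pdgfra level was 1.10-fold that of the rest. Genes that led clusters are named after their values were seen. Ac0 was led by Slco2a1 and Npnt, Ac12 by Calb1 and Opcml, Ac13 by Aplnr and Bmp3, and Bc3, like Ac0, by Npnt with Slco2a1 among its leading genes. In Ac0, 6 of 7 epithelial markers exceeded their level in the rest of the ending at least 4-fold, at a sum of 364 CPM, against a Pdgfra level of 1268 CPM. Ac12 had 4 such markers, at a sum of 336 CPM, and Ac13 had 0, at 235 CPM.

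Here and for each of the genes below, levels are ranked over the clusters of at least 50 cells. Aldh1a1 was highest in Ac0 at 132 CPM (122 to 143), followed by Ac2, a mesenchymal cluster led by Ccnd1 and Ung, at 49.5 (44.9 to 54.4). In ending B it was highest in Bc3 at 34.3 (27.3 to 42.5), whose interval overlapped that of Bc11 at 27.6 (15.8 to 44.8). It was low in the other PDGFRA-high-like clusters, at 12.7 CPM in Ac12, 11.7 in Ac13, 14.0 in Bc1 and 5.70 in Bc2.

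Aldh1a2 was the broadest of the 3. It was highest in Ac13 at 526 CPM (495 to 558) and lowest in Ac8, a cluster led by Dpt and Aspn, at 53.2 (44.8 to 62.7). In ending B the top clusters were Bc2 at 368 (348 to 389) and Bc1 at 349 (332 to 366), which did not differ beyond their intervals, then Bc3 at 269 (248 to 290). The lowest was Bc5 at 29.4 (22.6 to 37.5).

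For Aldh1a3, Ac15, a mesenchymal cluster of 56 cells led by Igfbp3 and P2rx1, had 1703 CPM (1584 to 1830), and Aldh1a3 was itself among its 10 leading genes. This cluster was not PDGFRA-high-like, since its Pdgfra level of 91.0 CPM was below that of the rest. Ac0 followed at 391 (374 to 409) and Ac4 at 136 (125 to 149), while Ac2 had 1.49 (0.79 to 2.54). In ending B the highest level was in Bc3, at 175 (159 to 192), and the lowest in Bc0, at 10.8 (8.18 to 14.0). Ac0 and Bc3, both with Npnt and Slco2a1 among their leading genes, thus had the highest Aldh1a1 level of their endings, and their Aldh1a3 level was above those of the other PDGFRA-high-like clusters.

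Cyp26b1 was highest in Ac0, at 31.8 CPM (26.9 to 37.3). Ac15 at 18.2 (7.86 to 35.8), Ac12 at 17.0 (10.9 to 25.2) and Ac13 at 15.6 (10.7 to 22.0) came next and did not differ beyond their intervals. The other 12 clusters of at least 50 cells in ending A lay between 0.248 and 4.87 CPM. In ending B the order was Bc3 at 43.8 (35.8 to 52.9), Bc1 at 34.6 (29.5 to 40.5), Bc11 at 20.7 (10.7 to 36.1) and Bc2 at 9.98 (6.95 to 13.9), in which each pair of neighbours overlapped. Bc5 and Bc7 had no UMI of it. Of all Cyp26b1 UMIs in clustered cells, 71.0% (65.4 to 76.2) in ending A and 91.4% (87.9 to 94.2) in ending B fell in PDGFRA-high-like clusters, which held 11.9% and 35.6% of all UMIs. These shares pool sets of unlike make-up. Of all kept UMIs, PDGFRA-high-like cells held 7394416 of 9385520 in A3 and 7160956 of 8271476 in B3. They held 194 of 220 Cyp26b1 UMIs in A3 and 255 of 265 in B3. The pooled shares thus mix set make-up with the contrast between clusters, which is given inside each set below.

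Crabp1 and Rarb lay outside these clusters. Crabp1 was highest in Ac2 at 30.4 CPM (26.9 to 34.3) and, in ending B, in Bc7 at 17.8 (11.9 to 25.6), while Ac12, Ac13 and Bc2 had no UMI of it. The PDGFRA-high-like clusters held 0.230% (0.03 to 0.83) of its UMIs in ending A and 1.74% (0.21 to 6.14) in ending B. Rarb was highest in Ac1 at 30.0 (26.0 to 34.4), with Ac8 and Ac10 both at 27.0, and in Bc0 at 13.7 (10.7 to 17.2); Bc3 had no UMI of it. PDGFRA-high-like clusters held 2.32% (1.52 to 3.38) and 2.76% (0.76 to 6.91) of Rarb UMIs. The shares of Crabp1 and Rarb pool the sets in the same way as those of Cyp26b1.

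Rara varied least, from 27.2 CPM in Ac6 to 61.5 in Ac12 and from 31.9 in Bc8 to 82.9 in Bc1. Rarg was highest in Ac0 at 28.6 CPM (24.0 to 33.9), followed by Ac1 at 16.8 (13.8 to 20.1); in ending B it was highest in Bc3 at 10.7 (7.01 to 15.7) and Bc1 at 10.3 (7.57 to 13.7). Crabp2 stayed at or below 4.85 CPM in every cluster of at least 50 cells.

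**Figure D3:**
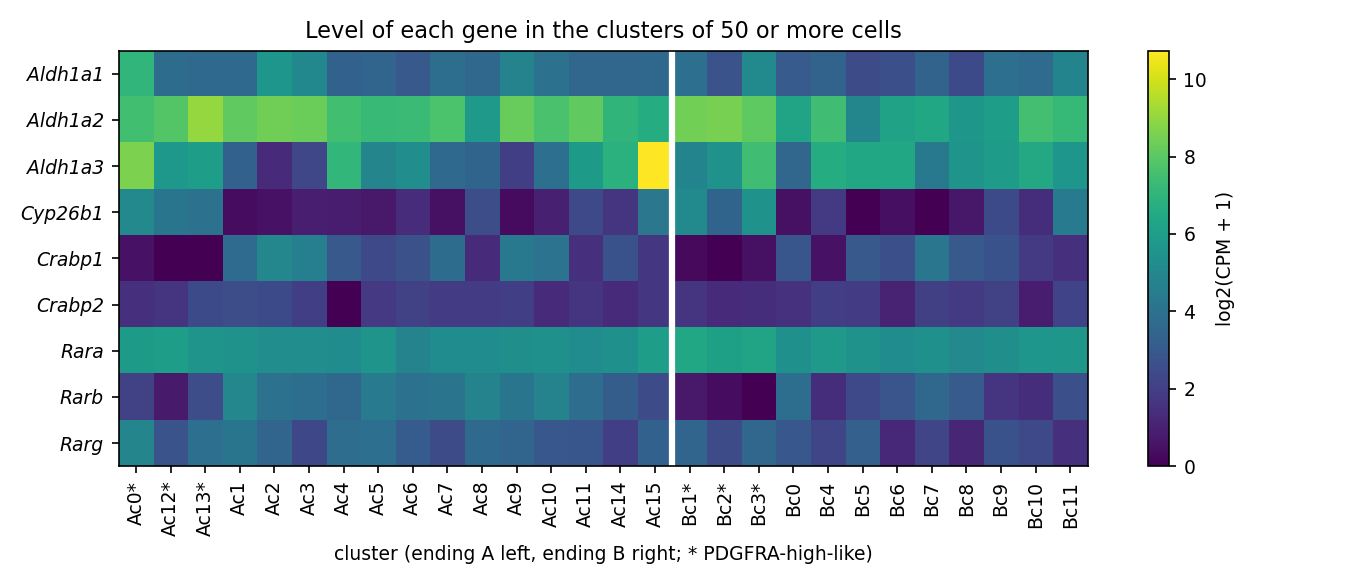
Level of each gene (rows) as log2(CPM + 1) in the clusters of 50 or more cells (columns), ending A left of the white line and ending B right of it. Stars mark PDGFRA-high-like clusters, where Crabp1 and Rarb are dark. Cyp26b1 lies at 9.98 to 43.8 CPM there, while Ac15 and Bc11, which carry no star, are at 18.2 and 20.7 CPM. The brightest cell is Aldh1a3 in Ac15 (1703 CPM).

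The contrast was then taken inside each set, so that both classes share a barcode set. No label gives the ages of the cells of a set, so the classes are not matched for age. The classes were named from expression in these same cells. The share of all genes that keep 1 direction in 6 of 6 sets, or pass 2-fold in 5, is not given here. Such counts of sets therefore have no background beside them, for this gene and those below. Cyp26b1 was higher in PDGFRA-high-like cells than in other mesenchyme in 6 of 6 sets. It had 16.6 against 1.08 CPM in A1, 13.3 against 0.984 in A2 and 26.2 against 13.6 in A3. In ending B it had 9.26 against 1.19 CPM in B1, 16.5 against 1.08 in B2 and 35.6 against 7.73 in B3. The ratio passed 2-fold in 5 sets, the exception being A3, where other mesenchyme held 60 cells and 10 UMIs of the gene. Of these 60 cells, 10 were of Ac17, a cluster of 20 cells with Cyp26b1 at 29.8 CPM (12.8 to 58.6). The small classes limit precision: PDGFRA-high-like cells numbered 51 in A1 and 40 in A2, with 7 and 5 UMIs of Cyp26b1.

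Rarb was lower in PDGFRA-high-like cells in 6 of 6 sets. Its level was 4.74 against 17.6 CPM in A1, 13.3 against 19.3 in A2 and 2.57 against 9.49 in A3. In ending B it was 0.662 against 8.25 in B1, 0.550 against 7.34 in B2 and 0.279 against 2.90 in B3. The difference passed 2-fold in 5 sets, but it rests on few counts: PDGFRA-high-like cells held 2, 5 and 19 UMIs of Rarb in A1 to A3 and 1, 1 and 2 in B1 to B3, where other mesenchyme of the last set held 3. The log2 differences were -1.90 (-4.94 to -0.03), -0.53 (-2.16 to 0.70) and -1.88 (-3.20 to -0.39) in ending A. In ending B they were -3.64 (-8.96 to -1.11), -3.74 (-9.06 to -1.21) and -3.38 (-6.96 to -0.25), so only the intervals of B1 and B2 lay wholly past 2-fold. Crabp1 had 0 UMIs in the PDGFRA-high-like cells of A1, A2 and B2 and 1 or 2 in the other sets, against 14.5 to 15.7 CPM in other mesenchyme of ending A and 1.93 to 6.48 CPM in ending B.

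Aldh1a2 gave different values by ending. In B1 and B2 it was higher in PDGFRA-high-like cells, at 278 against 73.0 CPM and 293 against 76.0 CPM, with log2 differences of 1.93 (1.75 to 2.11) and 1.95 (1.78 to 2.11). In ending A the differences were 0.43 (0.17 to 0.68), 0.04 (-0.27 to 0.33) and 0.42 (0.18 to 0.66), and in B3, with 361 against 349 CPM, it was 0.05 (-0.11 to 0.21). Aldh1a3 showed the other layout. It was at 159 against 36.8 CPM in A1, 216 against 35.3 in A2 and 257 against 159 in A3, whereas the log2 differences in ending B lay between -0.09 and 0.03 with intervals that included 0. Aldh1a1 was higher in 5 of 6 sets, from 0.79 to 2.29 on the log2 scale, and was -0.17 (-0.97 to 0.72) in B3. Rara was higher in 6 of 6 sets, by 0.42 to 0.93, but the intervals of A1 (-0.26 to 1.06) and A2 (-0.30 to 1.05) included 0. Rarg was higher in 6 of 6 sets, by 0.21 to 1.82. Its intervals included 0 in A1 (-0.81 to 1.79), B1 (-1.01 to 1.27) and B2 (-0.03 to 1.82). Other mesenchyme held 5 UMIs of Rarg in A3 and 3 in B3. With 2-fold in 6 of 6 sets as the call, 0 of the 8 genes tested were called in either direction, where 2.79% of 10707 genes were called above and 3.55% below. For Crabp1 this call could not be made. It was lower in 6 of 6 sets and past 2-fold in 5. In A2 it had 0 UMIs in 40 PDGFRA-high-like cells, against 15.7 CPM in other mesenchyme. Read against the limit of 3 counts, that 0 gives a log2 difference of -0.97, so 2-fold was out of reach there.

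**Figure D4:**
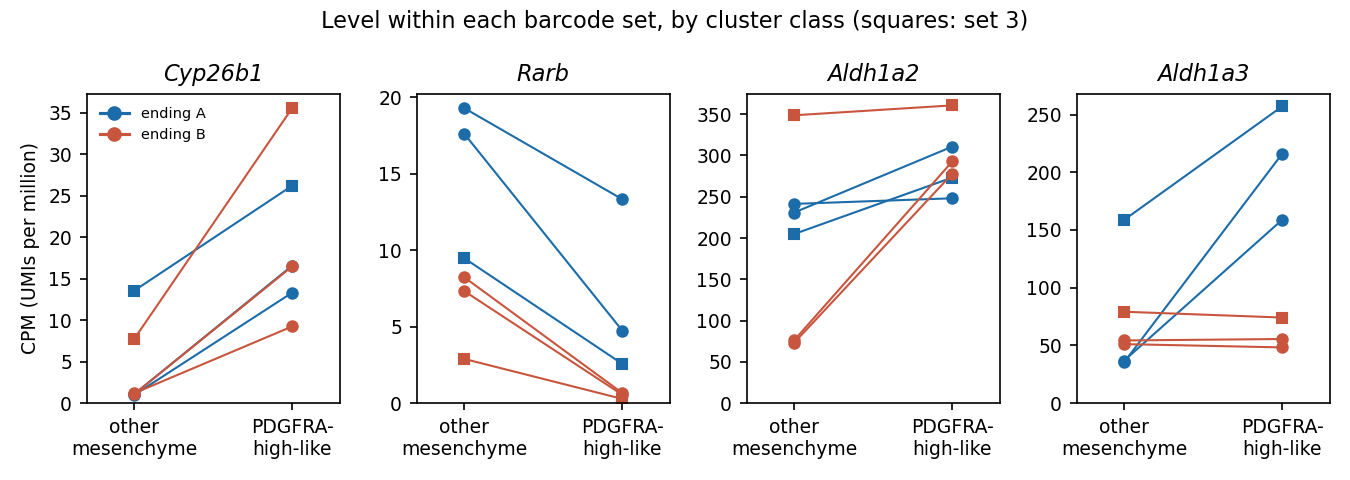
CPM (y axis, from 0) in other mesenchyme and in PDGFRA-high-like clusters of the same barcode set, 1 line per set, for 4 genes. Squares mark set 3; all 6 lines go up for Cyp26b1 and down for Rarb, while Aldh1a3 goes up in ending A (blue) and stays level in ending B (red).

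Within single PDGFRA-high-like clusters, set 3 could be compared with sets 1 and 2 at a like cell type. In Ac0 the levels of Aldh1a1 (131 against 147 CPM) and Aldh1a3 (394 against 357 CPM) did not differ beyond counting error, although over all cells A3 was more than 2-fold higher for both. Aldh1a2 was lower in set 3 there, at 172 against 244 CPM (log2 -0.50, -0.83 to -0.17). Cyp26b1 had 32.5 against 22.7 CPM in Ac0, with a log2 difference of 0.52 (-0.50 to 1.76); sets 1 and 2 held 46 cells of this cluster. Aldh1a2 was higher in set 3 within Ac12, at 244 against 153 CPM (log2 0.67, 0.13 to 1.26), and Aldh1a1 was lower within Ac13, at 8.27 against 37.3 CPM (log2 -2.18, -3.46 to -0.80). Sets 1 and 2 held 26 cells of Ac12 and 19 of Ac13.

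In ending B, Cyp26b1 remained higher in B3 within each of the 3 clusters. It had 41.3 against 17.8 CPM in Bc1, 13.53 against 4.87 in Bc2 and 50.5 against 23.3 in Bc3, which gave log2 differences of 1.21 (0.57 to 1.92), 1.48 (0.25 to 2.91) and 1.12 (0.30 to 2.04). These are smaller than the 3.40 over all cells. Aldh1a1 was lower in B3 within Bc1, at 9.79 against 24.8 CPM (log2 -1.34, -2.09 to -0.59), and within Bc2, at 1.93 against 11.1 CPM (log2 -2.53, -4.57 to -0.89). Aldh1a2 was at 364 against 310 CPM in Bc1, 428 against 282 in Bc2 and 277 against 245 in Bc3, with log2 differences of 0.23 (0.07 to 0.40), 0.61 (0.43 to 0.78) and 0.18 (-0.09 to 0.45).

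Synthesis and breakdown genes were last compared in the same cells at 2000 UMIs per cell, with the sets of an ending as strata. An odds ratio of 1 means that a UMI of 1 gene says nothing about the other. For Aldh1a1 with Cyp26b1 the ratio was 0.664 (0.281 to 1.57) in ending A, from 6 cells with both, and 1.42 (0.574 to 3.54) in ending B, from 5 cells. For Aldh1a3 it was 1.49 (0.887 to 2.50), from 22 cells, and 0.786 (0.457 to 1.35), from 15 cells. For Aldh1a2 it was 0.911 (0.551 to 1.51), from 23 cells, in ending A. These 5 intervals include 1 and allow ratios on both sides of it. For Aldh1a2 in ending A, however, 3 of 5 other settings gave intervals below 1: 0.693 (0.494 to 0.971) at 5000 UMIs per cell, 0.688 (0.509 to 0.929) without thinning and with depth as a stratum, and 0.505 (0.294 to 0.868) with no cell filter. With clusters as strata it was 1.10 (0.649 to 1.86), and at 1000 UMIs 1.01 (0.462 to 2.23). For Aldh1a1 in ending B, the ratio at 1000 UMIs was 3.36 (1.04 to 10.9), while its other settings gave intervals that included 1. For Aldh1a2 in ending B, 80 cells had both where the product of the shares gives 66.7, a ratio of 1.43 (1.04 to 1.96). Inside the PDGFRA-high-like clusters of ending B it was 1.19 (0.856 to 1.66), and at 1000 UMIs per cell it was 0.973 (0.604 to 1.57). Among single clusters of at least 50 cells, the interval excluded 1 for Aldh1a2 in Bc1, at 1.75 (1.09 to 2.82). It also did for Aldh1a3 in Bc3, at 0.438 (0.203 to 0.943). All other single-cluster intervals that could be formed included 1. No allowance was made for the number of intervals formed, and the cells of a cluster are not replicates.

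The share of Cyp26b1-positive cells that also had an Aldh1a2 UMI differed between sets. It was 29.8% (18.4 to 43.4) in A3, against 33.7% of cells without a Cyp26b1 UMI, and 51.9% (43.0 to 60.8) in B3 against 45.9%. In B1 it was 37.5% (15.2 to 64.6) against 18.75%, and in B2 33.3% (14.6 to 57.0) against 18.9%. A1 had 33.3% (4.33 to 77.7) against 33.4%, and A2 had 40% (12.2 to 73.8) against 33.3%. Sets 1 and 2 of both endings had few Cyp26b1-positive cells, so their intervals are wide. For Aldh1a3 the share was 31.6% (19.9 to 45.2) in A3 against 27.3%, and 9.30% (4.90 to 15.7) in B3 against 11.9%. Cells with a UMI of Rarb and of Cyp26b1 were 0 of 5736 in ending A and 1 of 6911 in ending B, where the product of the shares gives 0.870 and 0.574 cells, so this depth cannot show whether the 2 genes avoid each other. Among the synthesis genes, Aldh1a1 and Aldh1a3 in ending A had a ratio of 1.50 (1.11 to 2.03), and 1.45 (1.03 to 2.03) inside the PDGFRA-high-like clusters; in ending B it was 1.08 (0.626 to 1.85), and 1.56 (0.852 to 2.86) inside those clusters. Aldh1a1 and Aldh1a2 had a ratio of 0.832 (0.646 to 1.07) in ending A and 0.677 (0.467 to 0.981) inside its PDGFRA-high-like clusters. In ending B their ratio was 1.48 (1.04 to 2.104), and 0.916 (0.590 to 1.42) inside the PDGFRA-high-like clusters. Aldh1a2 and Aldh1a3 had ratios of 0.973 (0.809 to 1.17) and 1.13 (0.943 to 1.35) in the 2 endings.

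**Figure D5:**
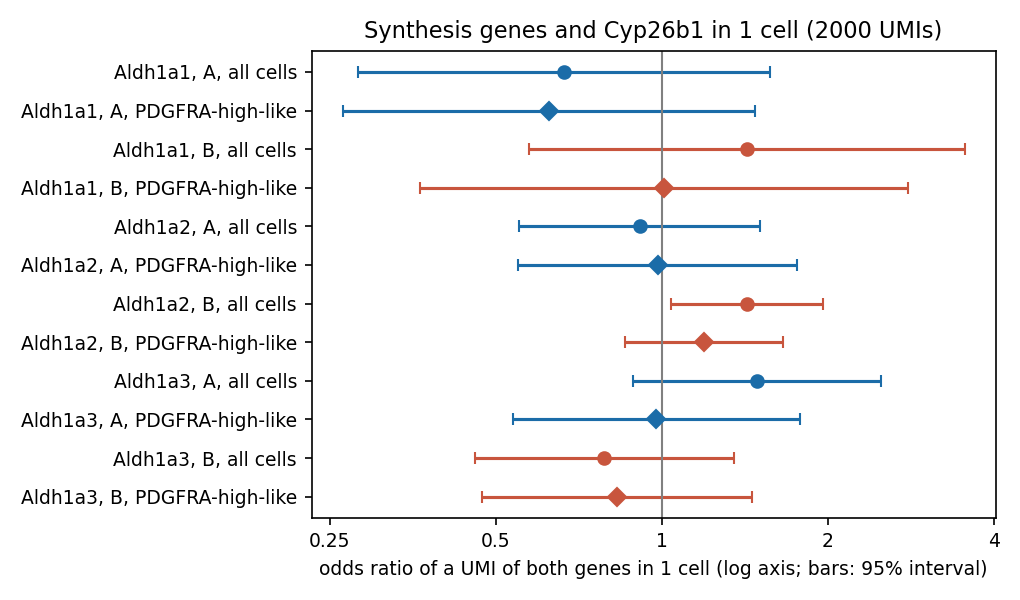
Odds ratio (x axis, log scale) of finding a UMI of Cyp26b1 and of each synthesis gene in 1 cell, with 95% intervals, for all kept cells (circles) and PDGFRA-high-like clusters (diamonds) of each ending. The interval lies above 1 only for Aldh1a2 in all cells of ending B (1.04 to 1.96).

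Across clusters, the 9 genes and others could be ranked by likeness. Likeness was the mean of the correlations of log2(CPM + 1) over 16 clusters of ending A and 12 of ending B. Clusters of an ending share barcode sets and differ in depth, so these values describe the clusters only. Cyp26b1 ran with Rara (0.76) and opposite to Crabp1 (-0.84) and Rarb (-0.77), and Crabp1 ran with Rarb (0.76). Among 7342 genes, those most like Cyp26b1 were Btbd7 (0.91), Serinc3 (0.90) and Gatad2b (0.89). Those most like Rarb were Etfa, Samd5 and Armcx6 (each 0.92), and those most like Crabp1 were 3110082I17Rik (0.91), Notch2 (0.89) and Nr2f1 (0.89), the last of which is in the retinoid list. For the synthesis genes they were Nrg2 (0.80), H19 (0.79) and Hpgd (0.76) for Aldh1a1, Proser1 (0.86), Snn (0.83) and Dera (0.82) for Aldh1a2, and Fermt2 (0.90), Ccl11 (0.86) and Ednra (0.86) for Aldh1a3. For the other receptors they were Crebrf (0.89), Atp6v0b (0.88) and Bmf (0.88) for Rara, and Tmem9 (0.79), Clip3 (0.77) and Ndufv3 (0.77) for Rarg. The correlation of Cyp26b1 with Aldh1a2 was -0.15 in ending A and 0.77 in ending B, and with Aldh1a3 it was 0.71 in ending A and 0.25 in ending B, so no synthesis gene followed Cyp26b1 over 0.7 in both endings.

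The genes lie on 8 chromosomes of GRCm38 (mm10, the build named in the submitters' processing notes), by GENCODE M21. Aldh1a1 is at chr19:20492715-20643465, Aldh1a2 at chr9:71215789-71296243, Aldh1a3 at chr7:66390890-66427517 and Cyp26b1 at chr6:84571414-84593908. Crabp1 is at chr9:54764748-54773110 and Crabp2 at chr3:87948666-87953376. Rara is at chr11:98927818-98974942, Rarb at chr14:16430839-16819156 and Rarg at chr15:102234938-102257517. Genes on the other strand overlap Aldh1a1 (C730002L08Rik and Gm6684) and Aldh1a2 (Gm48124), as they do Rarb. On the same strand, Gm22061 overlaps Rara.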

How the data were processed

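Single-cell transcriptomes were measured with MULTI-seq on the 10x Chromium 3' v3 chemistry, per the labels' protocols. The submitters' processing notes name Cell Ranger 2.1.1, Seurat and mm10. The authors deposited 1 matrix for all samples, whose entries are UMI counts that were not normalized; the authors' cell filter is not given in the sources used here. The 9 genes, the retinoid list and the comparisons were chosen with earlier results of these data known.

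Cells with fewer than 1000 detected genes (108) or over 5% mitochondrial UMIs (367) were left out. For CPM, the UMIs of a gene in a set or cluster were added up and scaled to 1000000 UMIs of that set or cluster. Intervals are 95%: exact Poisson for levels, exact conditional binomial for log2 ratios, Clopper-Pearson for shares and Mantel-Haenszel with a normal interval on the log scale for odds ratios. A count of 0 was read against a limit of 3 counts. Clustering used scanpy 1.11.5 and leidenalg 0.10.2 (2000 variable genes, 30 components, 15 neighbours, resolution 1) within each ending. The rule for naming clusters was set after seeing the data. Scrublet called 53 doublets (0.418% of kept cells), a rate at which the caller cannot be said to have worked; they were left out of clusters only, and doublets may remain. Thinning to 2000 UMIs left out 41 cells. Named genes are the 9, genes of the retinoid list with at least 20 CPM in 1 set, and the 3 genes most like each of the 9 that reached 20 CPM in a cluster of 50 or more cells, by the mean correlation over both endings; genes that lead clusters are named beside them. Some genes of the retinoid list are not reported here. The ratio step was tested on simulated data. Samples were assigned to no suffix, so no comparison of ages or sorts was made.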

Additional observations from a re-analysis of the deposited data

How the results depend on the processing

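No paired analysis was possible because the matrix carries no sample or replicate label. Of 28 alternatives for the counts past 2-fold, 27 stayed within 1.5 times; with the mean of per-cell CPM, 1 gene was lower in ending B instead of 2, since 1 fell under the 5 CPM minimum (log2 ratios of -3.93 for Crabp1 and -3.99 for Rarb). None of 126 alternatives for single genes reversed a ratio. Leaving out the CPM minimum cannot change a single-gene ratio, so that setting could not reverse one. The odds ratio of Aldh1a2 with Cyp26b1 in ending B was 0.973 after thinning to 1000 UMIs against 1.43 at 2000; in ending A it was 0.505 with no cell filter against 0.911. That of Aldh1a3 with Cyp26b1 in ending A was 0.617 at 1000 UMIs against 1.49. That of Aldh1a1 with Cyp26b1 in ending B was 3.36 (1.04 to 10.9) at 1000 UMIs against 1.42. The causes were not tested.

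In 40 of 40 alternatives, the shares of Cyp26b1, Aldh1a2 and Aldh1a3 UMIs in PDGFRA-high-like clusters were above, and that of Rarb below, the share of all UMIs there. All of these shares pool the sets of an ending. Requiring Pdgfra at 2-fold left the clusters of ending A as they were. Dropping the Pdgfra minimum did so in ending B, so these settings could not differ there. At resolution 1.4 the share was 61.5% for Aldh1a2 and 38.3% for Aldh1a3 in ending B, and with called doublets kept it was 65.3% for Aldh1a2. Settings added after seeing the data moved it further. With no Pdgfra minimum (cluster Ac11 counted in), ending A gave 76.6% for Cyp26b1, 6.87% for Rarb, 19.7% for Aldh1a2 and 51.4% for Aldh1a3, beside 17.4% of all UMIs. With Pdgfra at 2-fold required, ending B gave 80.7% for Cyp26b1, 42.9% for Aldh1a2 and 31.9% for Aldh1a3, beside 23.7% of all UMIs. The odds ratios of Aldh1a1 with Cyp26b1 rest on 5 or 6 cells with both genes, which leaves wide intervals.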
